A study of Mus musculus with 2 samples.

Results

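Imprinted genes were measured in heart RNA of hybrid mice. The group holds 35 genes, chosen by gene symbol from a list of genes that textbooks describe as imprinted in the mouse. They are 35 of the 55536 annotated genes in the deposited tables, each with 1 gene record, and 28 of them are protein-coding and 7 are long noncoding RNAs. The animals were 2 adult females of the strain B6CASTF1/J, aged 8-10 months, which are first-generation offspring of C57BL/6J and CAST/EiJ parents. They form 1 group with no treatment and no control group, here named replicate 1 (animal 1 of the labels) and replicate 2 (animal 3). Total RNA (300 ng a library, with ERCC spike-in RNAs) was depleted of ribosomal RNA and made into directional libraries. Both records carry the same donor identifier, so that only the animal numbers say that there were 2.

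An imprinted gene is expressed mainly from the copy inherited from the mother or mainly from the copy inherited from the father. The choice is written as DNA methylation in the egg or sperm at an imprinting control region, and such regions act on clusters of genes in which protein-coding genes often lie beside long noncoding RNAs of the opposite parental origin. Many imprinted genes act on fetal growth, metabolism or the brain, and many are less active after birth. A hybrid of distant strains allows reads to be assigned to a parent by sequence differences, but the tables analysed here hold 1 value a gene, summed over both parental copies. All values below are therefore total levels, and nothing below measures imprinting itself. In bulk tissue, fewer cells of a type and less RNA per cell cannot be told apart.

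The libraries held 42223411 and 40553237 expected counts (reads assigned to genes by a statistical model, so that they need not be whole). Of these, 55877 and 48458 fell on the 35 genes. Levels are given in transcripts per 1000000 (TPM), which divide counts by gene length and scale each library to the same total. At the median of the members at 1 TPM or more, 1 TPM rested on 66.6 counts in replicate 1 and 72.1 in replicate 2. A count of 0 allows 3 counts, or 0.0711 and 0.0740 CPM in the 2 libraries, for counting error only. The tissue label was checked with 7 cardiomyocyte markers, the lowest of which, Ryr2, had 445 and 355 TPM. With 2 animals an exact sign-flip test cannot give a two-sided p under 0.5, so no test was made and differences are set against the spread between the animals.

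The results turn on a few loci, and their sequences are printed first. They come from the RefSeq promoter table (GRCm38.p6), which reaches from 250 bases before to 50 after each annotated start, and hold only bases before the start. Of the 35 genes, 28 matched 45 windows of this table; H19, Peg10, Sgce, Rtl1, Cdkn1c, Impact and Peg13 had none. Each sequence runs 5′ to 3′ on the strand of its gene, and capitals mark CG, the dinucleotide at which mouse DNA is methylated and which reads the same on both strands.

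The first pair is Grb10, a gene with an upstream start that carried most of its RNA here. Of its several downstream starts, the printed start carried little. The bases before the upstream start, chr11:12037421-12037670 (minus strand), hold 40 CG and those before the downstream start, chr11:12027972-12028221 (minus strand), hold 8.
Grb10 upstream start: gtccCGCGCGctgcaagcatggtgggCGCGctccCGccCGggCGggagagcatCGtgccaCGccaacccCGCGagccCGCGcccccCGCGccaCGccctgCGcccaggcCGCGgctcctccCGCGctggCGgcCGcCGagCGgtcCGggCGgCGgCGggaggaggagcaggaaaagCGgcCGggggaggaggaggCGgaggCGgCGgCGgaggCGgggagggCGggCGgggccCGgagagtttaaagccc
Grb10 downstream start: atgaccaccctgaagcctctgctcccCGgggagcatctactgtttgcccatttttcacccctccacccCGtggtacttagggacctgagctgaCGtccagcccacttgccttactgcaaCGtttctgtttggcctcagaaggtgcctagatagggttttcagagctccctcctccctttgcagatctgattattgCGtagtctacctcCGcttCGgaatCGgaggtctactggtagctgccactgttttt

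The second pair is Igf2r and Airn, a protein-coding gene and the noncoding RNA transcribed against it from a start inside it. The Igf2r sequence, chr17:12769707-12769956 (minus strand), holds 27 CG and the Airn sequence, chr17:12741061-12741310 (plus strand), holds 2.
Igf2r: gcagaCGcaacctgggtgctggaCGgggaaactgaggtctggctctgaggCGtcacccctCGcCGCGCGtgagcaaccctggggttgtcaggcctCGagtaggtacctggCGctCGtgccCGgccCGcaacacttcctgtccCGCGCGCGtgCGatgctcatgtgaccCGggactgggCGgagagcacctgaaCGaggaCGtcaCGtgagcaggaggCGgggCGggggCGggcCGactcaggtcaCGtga
Airn: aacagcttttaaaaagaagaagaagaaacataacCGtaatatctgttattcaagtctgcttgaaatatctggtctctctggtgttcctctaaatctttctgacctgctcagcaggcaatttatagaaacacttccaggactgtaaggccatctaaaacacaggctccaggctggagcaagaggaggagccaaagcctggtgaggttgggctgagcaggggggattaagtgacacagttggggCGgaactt

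The third pair holds both Snrpn starts between which the quantifications divided. The start that RefSeq gives to both Snrpn and Snurf is preceded by chr7:60005200-60005449 and the upstream Snrpn start by chr7:60140226-60140475 (both minus strand), with 3 CG each.
Snrpn and Snurf shared start: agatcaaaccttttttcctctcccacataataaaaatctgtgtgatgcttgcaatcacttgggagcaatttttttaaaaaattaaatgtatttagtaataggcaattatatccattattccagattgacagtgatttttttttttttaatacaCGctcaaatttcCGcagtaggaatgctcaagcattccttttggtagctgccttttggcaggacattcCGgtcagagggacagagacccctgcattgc
Snrpn upstream start: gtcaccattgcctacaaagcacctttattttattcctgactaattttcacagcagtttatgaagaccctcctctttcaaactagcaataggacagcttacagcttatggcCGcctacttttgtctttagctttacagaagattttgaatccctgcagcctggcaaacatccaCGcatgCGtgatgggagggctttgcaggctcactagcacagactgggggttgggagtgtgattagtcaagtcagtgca

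The last is the stretch of 146 bases that separates the starts of Peg3 and Usp29, which are transcribed away from each other, at chr7:6730432-6730577 (read on the minus strand, that of Peg3). It holds 5 CG, and it separates a gene that was present in these hearts from one that was nearly absent.
Peg3 to Usp29: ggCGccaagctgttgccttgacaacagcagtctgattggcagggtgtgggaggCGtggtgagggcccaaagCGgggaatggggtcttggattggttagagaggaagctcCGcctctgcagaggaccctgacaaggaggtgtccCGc

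Over all 45 windows of the members the median was 11 CG and the range 0 (Rian) to 45 (Grb10, upstream start). The median of all 32851 windows of 300 bases was 7. Windows with 20 or more CG made up 24.4% of the members' windows (11 of 45) and 26.5% of all windows. The members' median was thus above that of the table, and their share of CG-rich windows slightly below it. Some of these windows overlap or coincide, such as those of Snrpn and Snurf and pairs of windows at Gnas and Mest.

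Imprinted genes spanned the whole range from abundant to absent in these hearts. At 1 TPM or more in both animals were 21 of the 35 genes, 1 more reached it in replicate 1 only (Zim1), and 13 were below it in both. Of the 28 protein-coding members 16 were at 1 TPM or more in both animals, where 48.7% of all 22028 protein-coding genes were. Of the 7 long noncoding members 5 were, where 3.12% of 10155 long noncoding genes were. These shares are descriptions of a chosen list and no test was made of them. Maternally expressed genes, by the textbook assignment, passed in 6 of 9 cases and paternally expressed genes in 14 of 24.

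**Figure D1:**
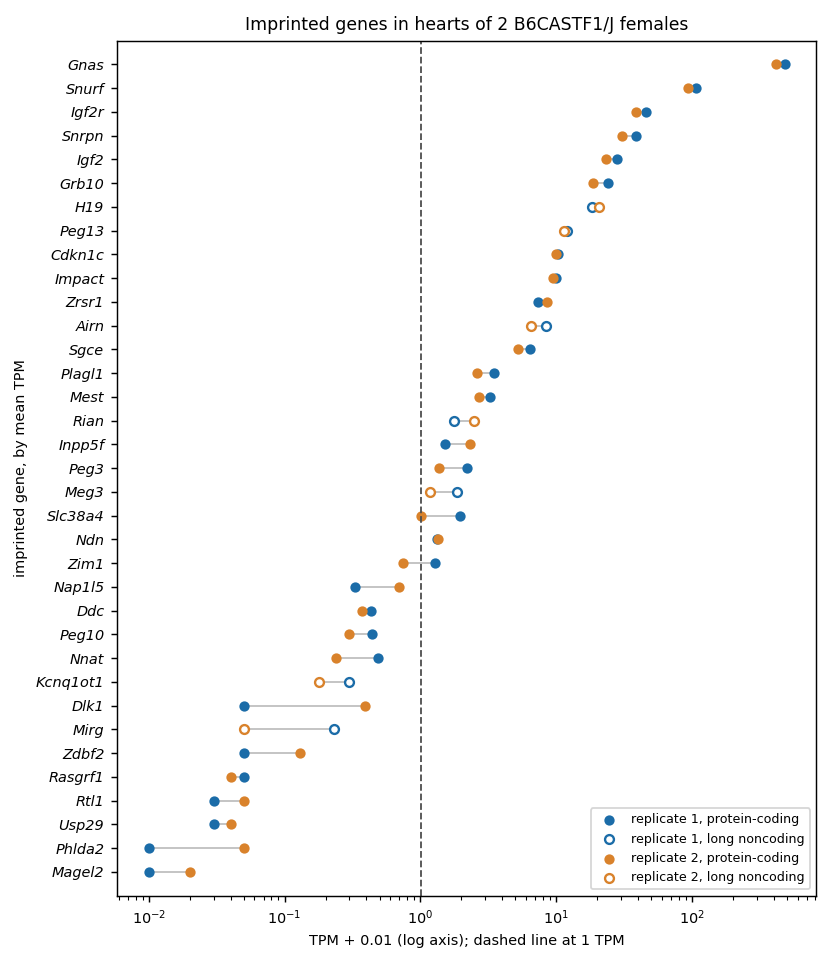
TPM + 0.01 on a log axis for the 35 imprinted genes, ordered by mean, with 1 point for each animal (filled, protein-coding; open, long noncoding) and a dashed line at 1 TPM. The 21 genes at 1 TPM or more in both animals run from Gnas at 481 and 413 TPM down to Ndn at 1.31 and 1.33 TPM, and the 2 genes at the left edge, Magel2 and Phlda2, are listed at 0 in replicate 1.

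The list as a whole held 0.0817% of all TPM in replicate 1 and 0.0708% in replicate 2 (mean 0.0762% ± 0.0077, SD, n = 2). Most of it was 1 gene. Gnas made up 58.8% and 58.4% of the members' TPM. The next members were 4-fold or more below it, and 8 genes in all were above 10 TPM in both animals.

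Gnas (chr2:174284320-174346744, plus strand) encodes the alpha subunit of the stimulatory G protein, which couples beta-adrenergic and other receptors to adenylyl cyclase. Its level was 481 TPM in replicate 1 and 413 TPM in replicate 2 (447 ± 47.4, SD, n = 2), place 122 among all protein-coding genes. The locus also makes other products from upstream starts: a neuroendocrine secretory protein, an extra-large form of the alpha subunit, and a noncoding exon 1A transcript. These other starts, not the main one, are the strictly imprinted ones in most tissues. Transcripts were therefore grouped by start, joining starts within 500 bases. The group that begins at position 174330006, which encodes the usual alpha subunit, held 99.1% and 99.4% of the gene's TPM in the alignment-derived transcript table. The most upstream group, at 174284320, was listed at 0 in both animals (mean 0.13 TPM in the table derived from reads). The groups at 174285256 and 174297859 had means of 0.485 and 0.020 TPM. RefSeq's window at the main start held 40 CG of 300 bases, below only the upstream start of Grb10 among the members' windows.

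The share of the exon 1A group depended on the quantification. In the alignment-derived table it held 0.36% ± 0.14 of Gnas TPM (SD, n = 2). In the other transcript table, derived from reads without that alignment, it held 15% ± 1.7, nearly all of it on 1 processed transcript, Gnas-218 (14.4% ± 1.75). The main group then held 84.9% ± 1.76. The tables differed here by far more than the animals, so the level of the exon 1A transcripts was not settled by these files. The olfactory form of the alpha subunit, Gnal, stood at 0.050 and 0.21 TPM.

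Growth factor genes were next. Igf2, a fetal growth factor expressed from the paternal copy (chr7:142650766-142666816, minus strand), had 28.0 and 23.4 TPM (25.7 ± 3.23). Its neighbour H19 (chr7:142575529-142578143, minus strand), a maternally expressed noncoding RNA that shares enhancers with Igf2, had 18.4 and 20.6 TPM (19.5 ± 1.54), place 24 of all long noncoding genes. The log2 ratio of H19 over Igf2 was -0.60 in replicate 1 and -0.19 in replicate 2. Both genes were thus present at similar levels, and no direction was called by the rule used for pairs, which asks for the same sign in both animals, a mean log2 difference of at least 1 and a mean over 3 times the SD. Igf1, the insulin-like growth factor made mostly by liver in adults, had 2.80 and 2.57 TPM. Igf2 was 9.52-fold above it on the scale of TPM + 0.01 (log2 ratio 3.25 ± 0.09).

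The starts of Igf2 were not resolved. Its 9 annotated transcripts fall into 7 start groups, and no group held more than 29.5% of the alignment-derived TPM in either animal. By alignment the group at 142661870 led in replicate 1 with 29.5% but held 13.8% in replicate 2, where the most downstream group, at 142653030, led with 27.7%. In the other table the group at 142657496 led (30.5% ± 1.96). A group at 142656018 was at 0 in the first table and held 22.3% ± 0.886 in the second. H19 by contrast kept 1 leading transcript, H19-202, with 77.2% ± 3.42 and 79.0% ± 4.12 of its TPM. In addition, 61.9% of the 31-base words in Igf2 transcripts also occur in Gm49394, an annotated protein-coding gene that spans Igf2; it was listed at 0 in both tables and both animals.

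Igf2r (chr17:12682406-12769664, minus strand) encodes the receptor that carries IGF2 and mannose 6-phosphate-tagged enzymes to lysosomes, and is maternally expressed in mouse. It had 45.4 and 38.8 TPM (42.1 ± 4.66). Nearly all of it, 99.2% ± 0.64, began at 12769664, next to the CG-rich bases printed above. M6pr, the other mannose 6-phosphate receptor, had 16.5 and 14.3 TPM. Igf2r was 2.74-fold higher (log2 ratio 1.45 ± 0.01). This was the steadiest ratio between the animals among all 33 pairs compared.

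Airn (chr17:12741311-12860136, plus strand), the paternally expressed RNA that silences Igf2r on the paternal copy in most tissues, had 8.42 and 6.5 TPM (7.46 ± 1.36). It was place 59 of the long noncoding genes. Igf2r exceeded it 5.67-fold by the gene table (log2 ratios 2.43 and 2.58). The Airn level rests on 270 and 212 counts over annotated, mostly spliced records with an effective length of 953 and 961 bases, while the gene spans over 100 kb, so unspliced Airn outside these exons was not counted. A start group at 12815931, well inside the gene, held 24.3% ± 2.15 of its TPM. Airn and Igf2r overlap on opposite strands. The library kit is directional, but no source used here gives whether the counting used the strand, and without it reads of the overlap cannot be told apart.

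Grb10 (chr11:11930508-12038683, minus strand) encodes an adaptor that binds insulin and IGF receptors and limits their signal; it is maternally expressed in most tissues and paternally in the brain, from a separate start. It had 24.1 and 18.5 TPM (21.3 ± 3.92). The upstream start printed above (first base at 12037401) held 80.5% ± 1.51 of its alignment-derived TPM, and 79.9% ± 2.61 by the other table. The printed downstream start at 12027971 held 4.48% ± 0.37 and 7.86% ± 2.15. Farther downstream the shares depended on the quantification. The group at 12026732 held 13.7% ± 1.43 by alignment and 0.83% ± 0.66 by the other table. The group at 11970642 was at 0 by alignment and held 10.1% ± 3.89 by the other table. Both tables thus put most Grb10 RNA on the start with 40 CG before it. Its paralogue Grb14 was higher, at 80.2 and 71.4 TPM (log2 ratio of Grb10 over Grb14 -1.84 ± 0.15). Ddc, next to Grb10 and imprinted in the developing heart, encodes the enzyme that makes dopamine and serotonin from their precursors; it had 0.42 and 0.36 TPM from 10 counts in each animal.

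The other genes of the insulin-like growth factor pathway gave the setting. Of 16 listed genes 11 were at 1 TPM or more in both animals, and the list's median was 6.76 TPM, against 1.77 TPM for the 35 imprinted genes. The insulin receptor Insr had 64.3 and 51.4 TPM and the IGF receptor Igf1r 5.85 and 5.50. Among binding proteins, Igfbp7 had 47.5 and 42.1 TPM, Igfbp5 32.9 and 32.1, and Igfbp4 30.2 and 23.4. Of the RNA-binding proteins of Igf2 mRNA, Igf2bp2 had 1.35 and 0.93 TPM and Igf2bp1 0.11 and 0.16. None of the 12 genes of this list that could be compared differed 2-fold between the animals.

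At the Kcnq1 locus on distal chromosome 7 Cdkn1c and Kcnq1 lay far above the noncoding RNA Kcnq1ot1, and Phlda2 was nearly absent. Cdkn1c (chr7:143458339-143461050, minus strand), a maternally expressed inhibitor of cyclin-dependent kinases, had 10.3 and 9.95 TPM (10.1 ± 0.212). Of its paralogues, Cdkn1b had 15.9 and 12.95 TPM and Cdkn1a 4.30 and 3.14. Cdkn1c lay 2.74-fold above Cdkn1a, while the difference from Cdkn1b (log2 ratio -0.51 ± 0.18) was too small for a direction. Phlda2, a maternally expressed brake on placental growth, had 0 counts in replicate 1 and 1 in replicate 2, while its relative Phlda3 had 3.09 and 2.81 TPM.

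Kcnq1ot1 (chr7:143203458-143296549, minus strand) is the paternally expressed noncoding RNA that starts inside Kcnq1 and silences the cluster on that copy. It had 0.29 and 0.17 TPM, which for a record of about 93 kb (effective length 92992 bases) still meant 917 and 528 counts. A gene below 1 TPM was here among the better counted members. The deposited credibility intervals did not overlap, 0.269 to 0.306 TPM in replicate 1 and 0.151 to 0.178 TPM in replicate 2. Kcnq1 itself, a potassium channel of the cardiac action potential, had 11.9 and 12.2 TPM, 51.7-fold above it. Kcnq1ot1 lies in an intron of Kcnq1 on the opposite strand, so the caution on strand given for Airn holds for it too.

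At the Snrpn locus on central chromosome 7 the leading genes carry overlapping records. Snrpn (chr7:59982495-60140219, minus strand) encodes a protein of the spliceosome's small ribonucleoproteins and had 38.7 and 30.5 TPM (34.6 ± 5.78). Its biallelic paralogue Snrpb, which makes the equivalent protein in most tissues, had 46.9 and 41.7 TPM. The log2 ratio of Snrpn over Snrpb was -0.36 ± 0.12, under the limit for a direction.

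Snurf, a short reading frame carried by the first exons of the same transcripts, was listed at 107 and 93.4 TPM, the second level in the group. This level rests on 416 and 367 counts and an effective length of 116 bases, whereas Snrpn had 2384 and 1894 counts over 1832 bases. By counts Snurf was therefore well below Snrpn, and by TPM 2.90-fold above it. The Snurf record is a coding sequence of 216 bases, shown because it lies whole inside the transcript Snrpn-201.
Snurf-201: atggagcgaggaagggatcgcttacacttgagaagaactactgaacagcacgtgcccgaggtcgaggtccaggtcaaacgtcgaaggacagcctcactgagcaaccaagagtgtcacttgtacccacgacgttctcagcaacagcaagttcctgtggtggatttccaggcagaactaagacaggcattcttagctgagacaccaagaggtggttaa
All of its 186 words of 31 bases occur in Snrpn-201 and in the overlapping gene Gm38393, and 176 of them occur in Snrpn-202. No read inside it can be assigned to Snurf alone.

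In the table derived from reads, Snurf was listed at 0 in both animals and Snrpn had 35.7 and 29.3 TPM. Counts over both genes together were 2800 and 2261 by alignment, and 2585 and 2067 in the other table. The sum of the locus thus held while its split did not. The same happened to the Snrpn starts: the alignment-derived table put all Snrpn TPM on Snrpn-201, and the other put all of it on Snrpn-202, whose start lies upstream and which shares 95.8% of the words of Snrpn-201. The level of Snrpn can be read from either table, but neither its start nor the level of Snurf. Gm38393 itself had 0.74 and 0.68 TPM.

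Farther genes of this locus were low. Ndn, a paternally expressed gene of the MAGE family that restrains growth of neurons, had 1.31 and 1.33 TPM from 159 and 162 counts. Maged1, an X-linked gene of the same family, had 38.5 and 33.3 TPM, so that Ndn lay 26.9-fold below it. Magel2, a neighbour of Ndn known from the hypothalamus, had 0 and 1 count. Ube3a, the ubiquitin ligase at the far end of the locus, whose imprint is limited to neurons, had 50.2 and 43.3 TPM.

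Both genes at the Peg3 locus with opposite imprints were near the threshold. Peg3, a paternally expressed zinc finger gene (chr7:6703892-6730431, minus strand), had 2.18 and 1.35 TPM, and the maternally expressed zinc finger gene Zim1 had 1.28 and 0.74 TPM. Their log2 ratio was 0.76 and 0.86, under the limit for a direction, and 0.20 and 0.12 in the table derived from reads. Usp29, a deubiquitinase gene that starts on the far side of the stretch printed above, had 0.020 and 0.030 TPM from 2 and 4 counts. Peg3 was higher than Usp29 in both animals, with log2 ratios of 6.19 and 5.09 that rest on these few Usp29 counts.

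A like contrast was found on proximal chromosome 6. Sgce, which encodes epsilon-sarcoglycan of the dystrophin-associated complex (chr6:4674350-4747207, minus strand), had 6.36 and 5.2 TPM. Peg10, a gene derived from a retrotransposon and needed in the placenta, starts next to it on the other strand and had 0.43 and 0.29 TPM from 94 and 64 counts. Sgce was 15.9-fold higher (log2 ratios 3.86 and 4.12). Of the Sgce TPM, 98.8% ± 0.077 began at this shared region, at position 4747207. Sgca, the muscle sarcoglycan that is not imprinted, was higher still at 77.3 and 70.3 TPM, 12.8-fold above Sgce.

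Pairs of genes with a shared start region were therefore unequal in both cases, whereas the gene pairs with opposite imprints ranged from similar levels (H19 and Igf2) to a 43.5-fold difference (Cdkn1c over Kcnq1ot1). Of the 33 pairs 22 had a direction by the rule above, and 23 in the table derived from reads.

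**Figure D2:**
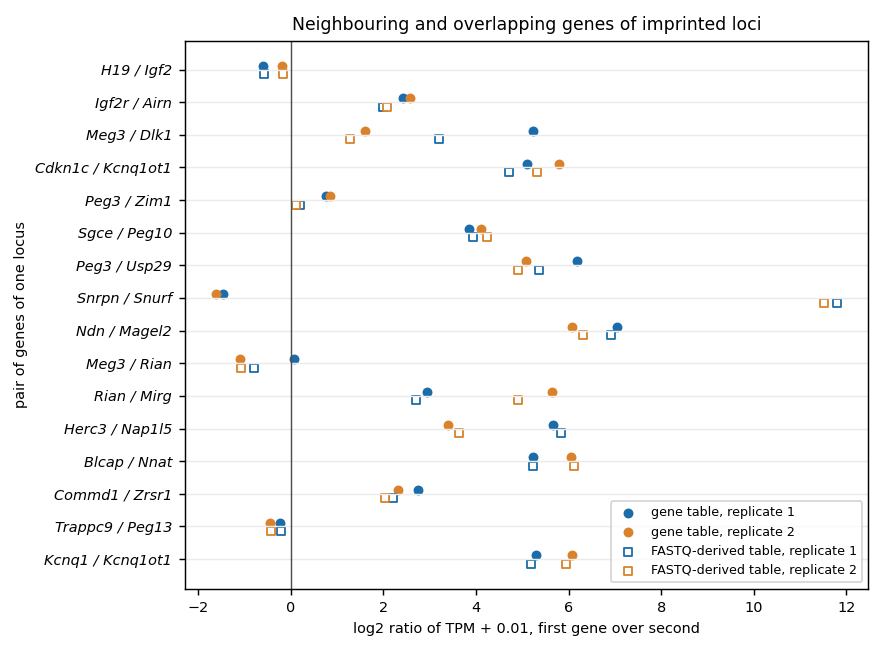
Log2 ratio of TPM + 0.01 of the first gene over the second for 16 pairs of genes of 1 locus, with circles for the gene table, squares for the table derived from reads, blue for replicate 1 and orange for replicate 2. Most pairs keep their side of the zero line in both tables, and Snrpn over Snurf moves from -1.54 on average in the gene table to 11.7 in the other, where Snurf is listed at 0.

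The Dlk1-Meg3 cluster on distal chromosome 12 was low throughout. The paternally expressed genes were at or near the floor: Dlk1, a membrane protein of progenitor cells that inhibits Notch signalling, had 0.040 and 0.38 TPM from 2 and 18 counts, and its relative Dlk2 0.020 and 0.12 TPM. Rtl1, derived from a retrotransposon, had 5 and 9 counts. The maternally expressed noncoding RNAs Meg3 (1.86 and 1.17 TPM) and Rian (1.76 and 2.49 TPM) were above 1 TPM in both animals, and Mirg (0.22 and 0.040 TPM) rested on 4 and 3 counts. Meg3 and Rian, which are thought to be parts of 1 long transcript, kept no fixed order by gene-table TPM, with log2 ratios of 0.08 and -1.08. In the table derived from reads Rian was higher in both animals (-0.79 and -1.06).

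Levels of Meg3 and Rian in TPM depended on which isoform received the reads. Meg3 had 67.6 and 84.3 counts, more in replicate 2, yet fewer TPM there, with effective lengths of 1082 and 2117 bases in the deposited table. Rian had 95 and 87 counts but more TPM in replicate 2, with effective lengths of 1601 and 1032 bases. The centred log2 ratio of Meg3 between the animals was -0.44 by TPM and 0.48 by counts. These ratios have opposite signs, so no direction can be given for Meg3.

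Small RNAs made from the same clusters left no counts. Records of 59 microRNAs and 23 small nucleolar RNAs lie on the strand of Meg3, Rian and Mirg, and 208 small nucleolar RNAs on that of Snhg14, the long RNA downstream of Snrpn. All had 0 expected counts in both animals, as had the microRNA records within H19, Igf2 and Rtl1 (1 each). The effective length was 0 in the deposited tables for 54 of the 59 microRNAs and for all of these small nucleolar RNAs. It was also 0 for the microRNA records within H19, Igf2 and Rtl1. For all records of effective length 0 the value 0 measures nothing. Snhg14 itself had 1.44 and 1.94 TPM.

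Genes that lie within an intron of another gene were compared with their hosts. Zrsr1, a paternally expressed retrogene for a splicing factor subunit (chr11:22972005-22976496, plus strand), had 7.29 and 8.52 TPM, below its host Commd1 at 49.1 and 42.8 TPM but above its X-linked paralogue Zrsr2 at 2.37 and 2.33. Peg13, a noncoding RNA in an intron of Trappc9 (chr15:72805600-72810324, minus strand), had 12.1 and 11.3 TPM (11.7 ± 0.544), place 40 of the long noncoding genes. It was at the level of its host, which had 10.3 and 8.26 TPM (log2 ratio of host over Peg13 -0.34 ± 0.16). Trappc9 lies on the same strand, so reads of unspliced Trappc9 over Peg13 cannot be told apart from Peg13. Zrsr1, and Nnat and Nap1l5 below, lie on the strand opposite to their hosts, so the caution on strand given for Airn holds for them.

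The other intronic genes had lower values than their hosts in both animals. Nnat, a proteolipid of neurons and endocrine cells, had 0.48 and 0.23 TPM from 14 and 8 counts in an intron of Blcap, which had 18.5 and 15.8 TPM. Nap1l5, a nucleosome assembly protein gene made by retrotransposition, had 0.32 and 0.69 TPM, and its host Herc3 had 16.8 and 7.34 TPM. The values of the 2 genes lay in opposite directions between the animals: Nap1l5 was higher in replicate 2 (19 and 39 counts) and Herc3 lower, with a centred log2 ratio of -0.996 that fell just short of 2-fold. The ratio of Herc3 over Nap1l5 (log2 4.53 ± 1.61) accordingly missed the rule for a direction in the gene table and passed it in the table derived from reads. Among their paralogues Nap1l1 had 25.0 and 22.6 TPM.

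The remaining members are single imprinted genes at their loci. Impact, which moderates the response of translation to amino acid shortage, had 10.0 and 9.43 TPM (9.73 ± 0.417) in the gene table and 16.1 and 13.8 TPM in the table derived from reads, the largest upward difference between tables among members above 5 TPM. Plagl1, a zinc finger factor that limits cell growth, had 3.45 and 2.61 TPM, of which 72.1% ± 4.39 came from the start group at 13090691. Its relatives Plagl2 (1.37 and 1.41 TPM) and Plag1 (1.24 and 2.02 TPM) were lower by the mean, and only the ratio to Plagl2 passed the rule for a direction. Mest, a hydrolase-like gene of mesoderm and growing fat, had 3.27 and 2.67 TPM. In the other table Mest had 2.52 and 1.14 TPM.

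Slc38a4, an amino acid transporter of liver and placenta, had 1.94 and 1.00 TPM, and Slc38a2, the broadly used transporter of the same family, had 79.0 and 31.5 TPM. Slc38a2 (12183 and 4915 counts) was thus over 2-fold lower in replicate 2, with a centred log2 ratio of -1.14. Inpp5f, an inositol phosphatase with an imprinted short isoform in brain, had 1.5 and 2.31 TPM as a whole gene. Its most upstream start group, at 128611328, held 71.2% ± 26.6 of this by alignment and 50.2% ± 19.8 by the other table. Zdbf2, a zinc finger gene active in the hypothalamus, had 0.040 and 0.12 TPM from 18 and 52 counts. Rasgrf1, a Ras exchange factor of neurons, had 0.040 and 0.030 TPM, and Rasgrf2 3.24 and 5.28.

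The markers of other cell types bear on the members known from neurons. Of 11 neural markers 1 (Stmn2) was at 1 TPM or more in both animals, at 2.02 and 2.19 TPM, and the summed level of the list was 4.76 and 3.93 TPM. Th was listed at 0 in both animals, and Elavl3 had 0.030 and 0.040 TPM. Beside these levels stand the low values of Magel2, Nnat, Rasgrf1, Zdbf2 and Ddc. Other members described above by a role or an imprint in neurons or brain were at 1 TPM or more in both animals. Among them were Ndn (1.31 and 1.33 TPM), Inpp5f (1.5 and 2.31 TPM for the whole gene) and Grb10 (24.1 and 18.5 TPM). They were picked by those descriptions, and no full list of members active in brain was used. The part of nerve cells in the levels of all these members was not tested. All 7 fibroblast markers (210 and 174 TPM in sum) and all 5 mesothelial markers (13.4 and 16.6 TPM in sum) were at 1 TPM or more, as were all markers of endothelial cells (6), pericytes and smooth muscle (7), macrophages (6) and red blood cells (5). Of 6 adipocyte markers 2 were, and Ucp1, the uncoupling protein of brown fat, was the only compared marker gene 2-fold apart between the animals, at 0.74 and 1.44 TPM.

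The members near the threshold of 1 TPM, by mean level, were Zim1, Ndn, Slc38a4, Meg3, Peg3 and Inpp5f, with means from 1.01 to 1.91 TPM. Below them the next was Nap1l5 at a mean of 0.51 TPM. In replicate 2 alone Zim1 (0.74 TPM) and Nap1l5 (0.69 TPM) were close.

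No imprinted gene that could be compared differed 2-fold between the animals. For the 22 members whose mean reached 1 TPM, with 20 counts or more over both libraries, the log2 ratio of replicate 2 over replicate 1 was formed with 0.1 TPM added and centred by subtracting the median of all 11876 such genes, -0.18. Of the 22 members 0 were 2-fold apart, where 1.41% of all compared genes were, a share too small for 22 genes to show a departure from it. The members' ratios ran from -0.71 (Slc38a4) to 0.77 (Inpp5f) with a median of -0.06. By counts these 2 genes were at -0.14 and 0.33, with effective lengths that differed between the animals, and the extremes were Zim1 (-0.48) and Meg3 (0.48). By TPM 14 of 22 were within 1.2-fold, as were 73.6% of all compared genes. Higher in replicate 2 were 8 members and lower 14; without centring 5 were higher and 17 lower.

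**Figure D3:**
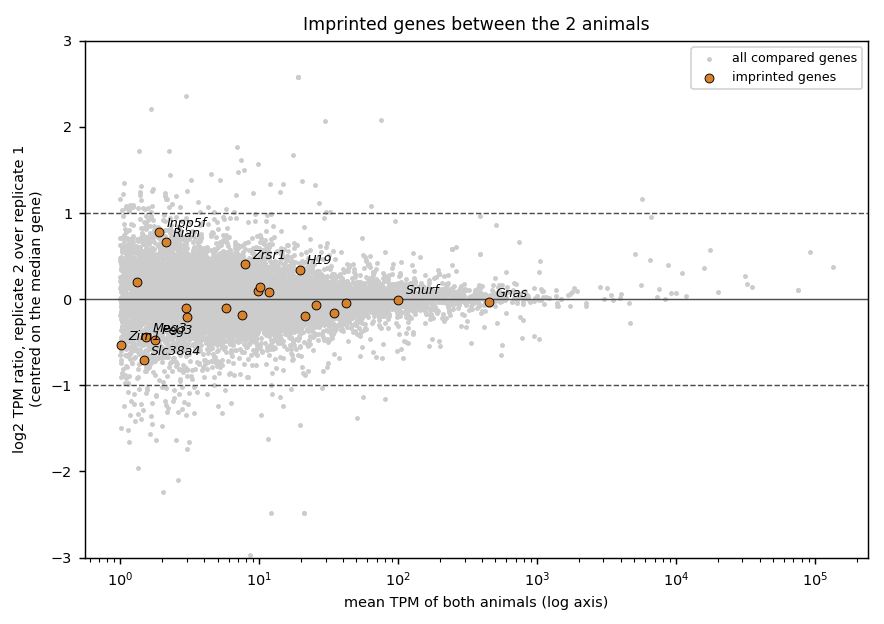
Centred log2 TPM ratio of replicate 2 over replicate 1 against mean TPM on a log axis, with all 11876 compared genes in grey and the 22 compared imprinted genes in orange; dashed lines mark 2-fold and 25 grey points lie beyond the axis. All orange points lie between the dashed lines, and the wider ones, from Slc38a4 at -0.71 to Inpp5f at 0.77, have means under 5 TPM.

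By textbook parent of origin both directions occurred. Of the 7 compared maternally expressed genes 3 were higher in replicate 2, and of the 14 compared paternally expressed genes 5 were. H19 (centred log2 ratio 0.34) and Zrsr1 (0.41) were the members above 5 TPM with the widest difference, both higher in replicate 2 in both tables. Of the marker lists, mesothelial markers had a median centred log2 ratio of 0.35, red blood cell markers -0.43 (5 of 5 lower in replicate 2), endothelial markers -0.23 (6 of 6 lower) and fibroblast markers -0.18 (6 of 7 lower); their part in the members' differences was not tested.

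The deposited credibility intervals of TPM were read as the measure of counting and assignment error. They did not overlap between the animals for 5 members, Gnas, Igf2r, Snrpn, Grb10 and Kcnq1ot1, all with higher TPM in replicate 1. Among the 22 compared members this was 4, beside 28.0% of all compared genes. These intervals are of uncentred values. After centring the first 4 differed by log2 -0.03 (Gnas), -0.04 (Igf2r), -0.16 (Snrpn) and -0.19 (Grb10), and Kcnq1ot1 by -0.35 with TPM and -0.62 with counts. Kcnq1ot1 had the same effective length in both animals. The 0.1 TPM added before the ratio is large beside its TPM and makes its TPM ratio smaller. For 11 members the TPM lay outside its own interval in at least 1 animal, below it for 10 and above it for Gnas. It lay below in both animals for 6, Plagl1, Rian, Nnat, Usp29, Mirg and Phlda2, so their levels and ratios given above may be too low. In replicate 1 Plagl1 had 3.45 TPM beside an interval of 4.03 to 6.51, and Usp29 0.020 TPM beside 0.049 to 0.364. The share of all genes outside their intervals was not computed.

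Among the 13 members too low to compare, 3 passed 2-fold when no minimum was set. They were Dlk1 (2 and 18 counts), Mirg (4 and 3 counts) and Nap1l5 (19 and 39 counts). Without a minimum 7.99% of all genes with any signal passed 2-fold. The Mirg ratio rests on 7 counts, with effective lengths of 550 and 2245 bases. The Dlk1 ratio rests on 20 counts in all.

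All but 1 of the members at this level were within 2-fold between the transcript tables in at least 1 animal. The gene sums of the table derived from reads were set against those of the alignment-derived table for 22 members at a mean of 1 TPM or more in either. Snurf was 2-fold lower in both animals and no other member was 2-fold apart, where 2.89% of 12379 genes were lower and 2.36% higher. Within 1.2-fold in both animals were 12 of the 22, beside 64.3% of all compared genes. Mest passed 2-fold in replicate 2 only (log2 -1.15, against -0.37 in replicate 1), and Impact was higher by log2 0.68 and 0.54.

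**Figure D4:**
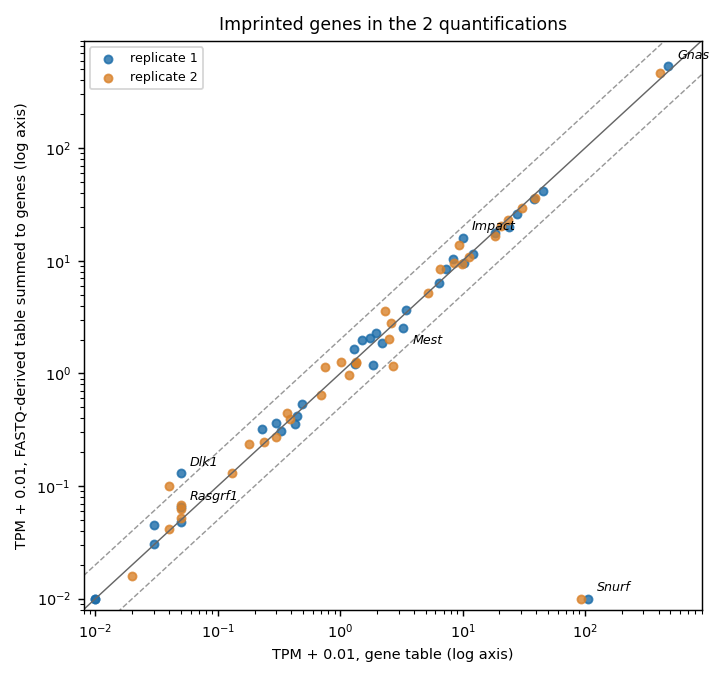
TPM + 0.01 of the 35 imprinted genes in the gene table and in the table derived from reads summed to genes, both on log axes, with blue for replicate 1 and orange for replicate 2; the solid line marks equal values and the dashed lines 2-fold. Snurf lies at 107 and 93.4 TPM on the horizontal axis and at 0 on the vertical one, and Impact at 16.1 and 13.8 TPM lies above the line.

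Isoforms of these members were less settled than their gene levels. The counts that follow were not formed over all genes, so they do not set the members apart from other genes. Of the 18 members at 1 TPM or more with at least 2 transcripts, 12 had the same leading transcript in both tables. Among them were Gnas (Gnas-206), Igf2r (Igf2r-201), Grb10 (Grb10-201), H19 (H19-202), Airn (Airn-201), Cdkn1c (Cdkn1c-201), Sgce (Sgce-205) and Plagl1 (Plagl1-202). The other 6 were Igf2, Snrpn, Mest, Meg3, Rian and Slc38a4. Of the 18, 13 had the same leader in both animals in each table, and for Igf2, Mest, Meg3, Rian and Slc38a4 it changed between the animals. By start group, with shares averaged over the animals, 14 of 18 had the same leader, and Igf2, Snrpn, Meg3 and Slc38a4 did not. For Rian this rests on mean shares of 24.938% and 24.936% in the table derived from reads, where its leader by mean led in neither animal. For Mest the group at 30733454 led in replicate 1 of that table, with 52.0% against 34.5% for the leader by mean. Even with the same leader a share can move: the first start group of Zrsr1 held 55.0% ± 0.648 by alignment and 91.9% ± 11.5 in the other.

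**Figure D5:**
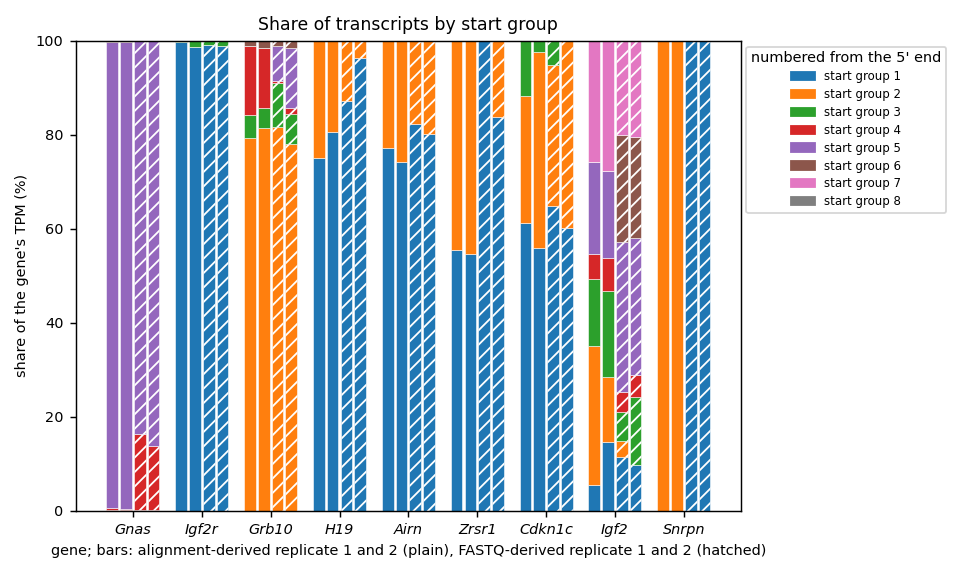
Share of a gene's TPM in % by group of transcript starts, numbered from the 5' end, for 9 members; the plain bars are replicate 1 and 2 of the alignment-derived table and the hatched bars replicate 1 and 2 of the table derived from reads. Gnas, Igf2r and Grb10 keep 1 dominant group in all bars, Igf2 is spread over its groups, and Snrpn changes from start group 2 in the first table to group 1 in the second.

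Other genes described as imprinted, some in the same clusters and some elsewhere, were taken from a further list of 41. The list does not give the tissue in which a gene is imprinted, so a level in heart says nothing of an imprint there. At 1 TPM or more in both animals were 21 of 41, and 9 were listed at 0 in both. The highest were Cd81, a tetraspanin (158 and 134 TPM), the matrix proteoglycan gene Dcn (121 and 104 TPM), the nucleosome assembly gene Nap1l4 (64.7 and 61.4 TPM) and Ube3a. Cd81 and Nap1l4 lie in the Kcnq1 cluster, where Ascl2 was listed at 0 and Slc22a18 had 0.19 and 0.17 TPM. Each cluster on the lists of the Kcnq1, Peg10 and Snrpn loci thus held both genes above 5 TPM and genes at or near 0. None of the 21 genes that could be compared differed 2-fold between the animals.

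Genes known to maintain imprints were also measured. Of 14 listed genes 9 were at 1 TPM or more in both animals. Trim28, the corepressor that zinc finger proteins bring to imprinting control regions, had 34.1 and 28.2 TPM, Zfp445, such a zinc finger protein, 24.3 and 19.9, the methyltransferase Dnmt3a 16.9 and 17.5, and the insulator protein Ctcf, which separates Igf2 from its enhancers on the maternal copy, 14.4 and 13.3. Zfp57, the zinc finger protein best known for this role in the embryo, had 0.88 and 0.25 TPM. Dppa3, which protects methylation in the fertilised egg, was listed at 0. The maintenance methyltransferase Dnmt1 had 4.04 and 3.51 TPM. None of the 9 compared genes differed 2-fold.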

How the data were processed

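Ribosome-depleted total RNA from hearts of 2 B6CASTF1/J females was analysed from 3 tables a library. The deposited description files name mm10 and GENCODE M21, and derive the gene table and 1 transcript table from transcriptome alignments but the other from reads in FASTQ form. No source used here gives the tools or strand settings. Per the file headers, the authors deposited expected counts or estimated counts and TPM, plus credibility bounds of TPM (a signal column in TPM units; level not stated). Reads of both parental alleles are summed, and how CAST/EiJ reads map to the C57BL/6J reference was not tested.

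The members and lists were chosen with earlier results of these data known. Pseudocounts were 0.1 TPM between animals and tables and 0.01 TPM between genes. Named were all 35 members, the genes of each pair, and of other lists the 4 highest and any 2-fold apart; other named list genes were chosen after their values were seen. Replicates are separate animals by label. The arithmetic of the ratios was checked on simulated data (Python 3.11.15, pandas 2.3.3). The changes set there were above 2-fold, in well-counted genes and without spread between animals. This check therefore does not bear on low members or on differences near 2-fold. Alternatives were other thresholds, pseudocounts, scalings, tables and leaving out each animal.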

Additional observations from a re-analysis of the deposited data

How the results depend on the processing

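At 5 TPM in place of 1 TPM, 13 members passed. In the table derived from reads 20 members were at 1 TPM or more in both animals, and they were not all the same genes. There Snurf was at 0, Meg3 fell to 0.95 TPM in replicate 2, and Zim1 passed in both animals with 1.62 and 1.14 TPM. Leaving out each animal in turn gave 21 to 22 members at 1 TPM or more, a share of TPM of 0.0708% to 0.0817%, 1 to 2 members apart between tables (Mest joined Snurf without replicate 1) and 13 to 14 with 1 main isoform. The members' share was 0.126% of expected counts and 0.208% of the TPM of nuclear protein-coding and long noncoding genes. With no minimum level 3 members were 2-fold apart between the animals. Without centring the members' median log2 ratio was -0.24, the median of all genes then being -0.18. Snrpn over Snurf reversed in the table derived from reads (log2 ratio 11.7); Zrsr1 over Zrsr2 lost its direction there (1.46), and Herc3 over Nap1l5 (4.74) and Dlk1 over Dlk2 (1.80) gained one. The cause was not tested beyond the construction of each setting. Of the 35 member levels, 24 moved by less than 1 SD between tables and 11 by more. This SD is that of 2 animals, so the split depends on how close the animals were. Ndn moved by more (1.32 ± 0.014 to 1.23 TPM), and Meg3 by less (1.515 ± 0.488 to 1.07 TPM). No paired analysis was possible because there is 1 group. With 2 animals, levels under about 20 counts and all isoform shares are the least certain values.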
